A study of Homo sapiens with 2 samples.

Results

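The genes described here are 30 genes of mitosis and the G2/M transition in Hep3B, an established human hepatocellular carcinoma line. They are a fixed list of cyclins, mitotic kinases, spindle checkpoint proteins, kinesins and centromere proteins, matched by symbol to the deposited table. All 30 had a value in both libraries, out of 11511 genes with values. RNA-seq was done on 1 library of Hep3B cells exposed to A4368, a compound known here by its code alone, at 25 µM for 24 h, and on 1 library of Hep3B cells without treatment. Both cultures came from the same commercial line and were grown in serum-containing medium, and the vehicle is not given in the sources used here. At issue was how the compound alters the transcriptome of these liver cancer cells. Levels are in FPKM, which divides the fragments of a gene by its transcript length and by the fragments mapped in the library, so levels of different genes can be set side by side. There are no replicates, so no value carries an error from repeated cultures, no p-value was computed, and each difference is one between 2 libraries of unknown depth.

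Genes of this group are transcribed in late S phase and G2 and are needed to build the spindle, attach and separate the chromosomes and divide the cell. In resting and G1 cells they are held down by the DREAM complex, and in dividing cells they are switched on by the B-MYB and FOXM1 transcription factors. Many of their promoters carry a cell cycle homology region (CHR), through which the MuvB core of those complexes binds, and CCAAT boxes bound by NF-Y. Hepatocytes of the adult liver rarely divide and express little of this set, whereas liver tumours and their cell lines express it.

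Those motifs, already known from genes of this group, were searched for in the upstream sequences of the 30 genes. RefSeq promoter entries (build GRCh38.p14) were found for 25 of the 30 genes, and AURKA, BIRC5, TPX2, TTK and UBE2C were not matched. In the 120 bases before the start, the CHR letters TTTGAA or TTTAAA, on either strand, were present in 18 of the 25 genes (72.0%), against 8.37% of the 8853 genes with an entry and a mean level of 1 FPKM or more. A gene with several entries was counted once, by any of them. CCAAT, again on either strand, was present in 19 (76.0%), against 29.9% of those genes, and both were present in 15 (60.0%), against 2.33%. Over all 35116 promoter windows of the same length, 2.17% held both. The motifs were also frequent in the further cell division genes described below. Of the 135 with an entry, 23.7% held the CHR letters, 48.1% CCAAT and 16.3% both. The following stretches show 1 gene for each role, the first in the list whose window held both motifs or, for the spindle checkpoint, a CCAAT box. They run 5′ to 3′ up to the base before the start, and capitals mark the CHR letters (TTTGAA or TTTAAA, or the complement TTCAAA) and the CCAAT box (CCAAT or its complement ATTGG).
CCNB1, chr5:69167030-69167149, plus strand: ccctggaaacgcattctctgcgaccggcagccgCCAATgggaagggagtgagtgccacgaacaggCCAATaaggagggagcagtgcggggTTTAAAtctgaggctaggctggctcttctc
PLK1, chr16:23678769-23678888, plus strand: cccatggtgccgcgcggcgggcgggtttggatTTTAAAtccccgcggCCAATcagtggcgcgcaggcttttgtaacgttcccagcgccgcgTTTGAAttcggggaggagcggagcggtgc
BUB1, chr2:110678064-110678183, minus strand: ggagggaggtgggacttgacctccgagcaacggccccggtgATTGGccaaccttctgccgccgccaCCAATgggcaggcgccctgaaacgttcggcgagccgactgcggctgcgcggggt
CDC20, chr1:43358861-43358980, plus strand: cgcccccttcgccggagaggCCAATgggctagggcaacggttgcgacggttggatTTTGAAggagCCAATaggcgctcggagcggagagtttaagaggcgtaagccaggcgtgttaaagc
KIF11, chr10:92593010-92593129, plus strand: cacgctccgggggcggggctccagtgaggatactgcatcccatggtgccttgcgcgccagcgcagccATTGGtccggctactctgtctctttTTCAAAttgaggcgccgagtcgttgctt
CENPF, chr1:214603075-214603194, plus strand: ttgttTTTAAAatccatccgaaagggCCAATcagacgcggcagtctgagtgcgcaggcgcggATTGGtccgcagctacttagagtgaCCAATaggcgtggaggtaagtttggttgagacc
MKI67, chr10:128126424-128126543, minus strand: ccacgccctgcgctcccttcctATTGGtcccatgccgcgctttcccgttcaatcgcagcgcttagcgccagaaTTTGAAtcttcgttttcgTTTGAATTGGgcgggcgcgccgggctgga
In CCNB1 and PLK1 the CHR nearest to the start began at positions -30 and -29, counted back from the start, and the nearest CCAAT box at -55 and -73. KIF11 had the same order, at -28 and -53. The order was the other way in CDC20, CENPF and MKI67. There the nearest CHR began at -65, -115 and -29, and the nearest CCAAT box at -55, -33 and -24. In MKI67 the letters TTTGAA and ATTGG share 1 base. A match of letters describes the sequence and does not show that a factor binds there.

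The 30 genes were mostly above the median level of all genes, and their levels in the libraries were close. With A4368, 28 of them lay above the median of all genes, which was 13.5 FPKM, and in the control also 28 lay above the median, which was 13.3 FPKM. Their levels ran from 10.4 FPKM (CENPE) to 151 FPKM (UBE2C) with A4368, against 8.97 FPKM (CENPE) to 165 FPKM (UBE2C) in the control. Summed over the 30 genes, the level was 1762 FPKM with A4368, against 1788 FPKM in the control, a ratio of 0.985. In 21 genes the A4368 value was within 10% of the control value, and in 11 it was within 5%. The share of all genes within these limits was not computed. By the ratio defined below, 26.1% of 11238 genes were at least 1.1-fold higher and 23.9% at least 1.1-fold lower, so values this close were common. In bulk RNA the share of dividing cells and the level of these RNAs in each dividing cell cannot be told apart.

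**Figure D1:**
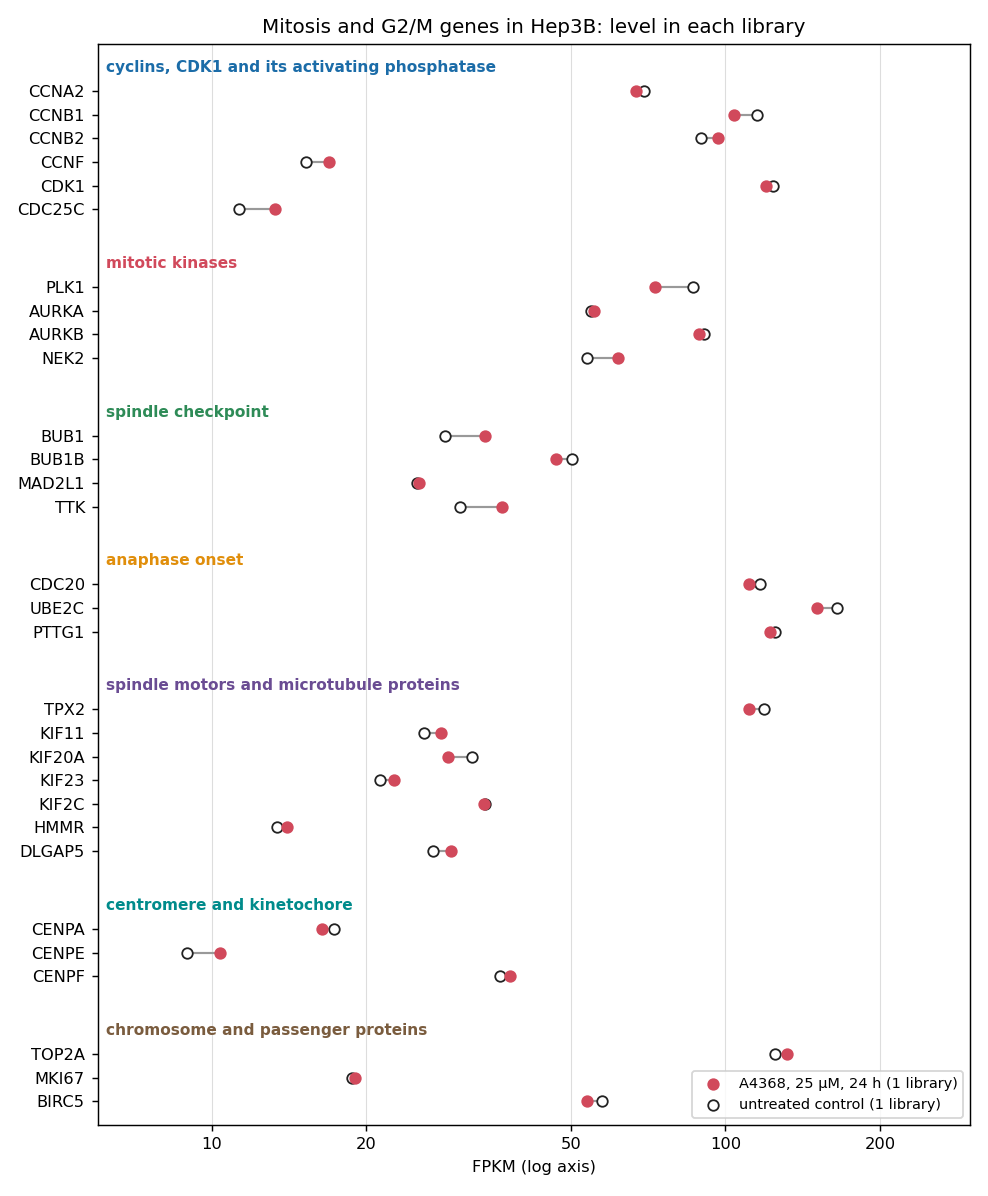
Level of each of the 30 genes in FPKM (log axis), by role; filled points are the A4368 library and open points the control library, 1 library each, joined by a line for each gene. The points of a gene lie close together from CENPE, at 10.4 FPKM with A4368 and 8.97 FPKM in the control, to UBE2C, at 151 FPKM with A4368 and 165 FPKM in the control.

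Differences were measured as log2((A4368 FPKM + 1)/(control FPKM + 1)), a library ratio that is positive when the A4368 value is higher and that understates the change of low genes. All 30 members were above the lower limit of 1 FPKM set on the mean. Of the 30 genes 16 had a higher and 14 a lower value with A4368, a share of 53.3% higher, while 52.0% of the 11238 genes whose mean level was 1 FPKM or more were higher. Their median ratio was 0.01, the same to 2 decimals as the median of 0.01 over those 11238 genes. None of the 30 differed by 1.2-fold on this scale, either way, while 22.4% of all these genes did, 11.2% higher and 11.1% lower. Genes at low levels scatter more, and among the 6406 genes whose mean lay between those of CENPE and UBE2C, 9.68 to 158 FPKM, 17.5% differed by 1.2-fold. By 1.1-fold, a limit chosen after the values were seen, 6 members were higher and 3 lower, where 26.1% and 23.9% of all these genes were. No member differed by 1.5-fold, and 3.19% of the 11238 genes did. The ratios of the members had an SD of 0.13 across genes, while that of the genes at the same levels was 0.23, a value that includes ratios down to -4.83. By measures less moved by such extremes the gap was smaller. The median absolute ratio was 0.10 for the members and 0.12 for the genes at the same levels, and the quartiles of the ratios ran from -0.07 to 0.11 for the members and from -0.12 to 0.12 for those genes.

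The scale of the libraries matters for differences this small. After each library was scaled so that the genes outside the 50 highest had equal sums, the median ratio of all genes was higher by 0.045 and that of the members was 0.06. The split became 20 higher and 10 lower, or 66.7% higher, while 60.9% of all genes were then higher. CDK1, AURKB, PTTG1 and KIF2C changed sign. TTK, BUB1 and CDC25C then passed 1.2-fold upward and none downward, while 15.2% and 8.47% of all genes did so. By 1.1-fold 9 members were then higher and 1 lower, where 3761 and 2069 of the 11238 genes were.

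**Figure D2:**
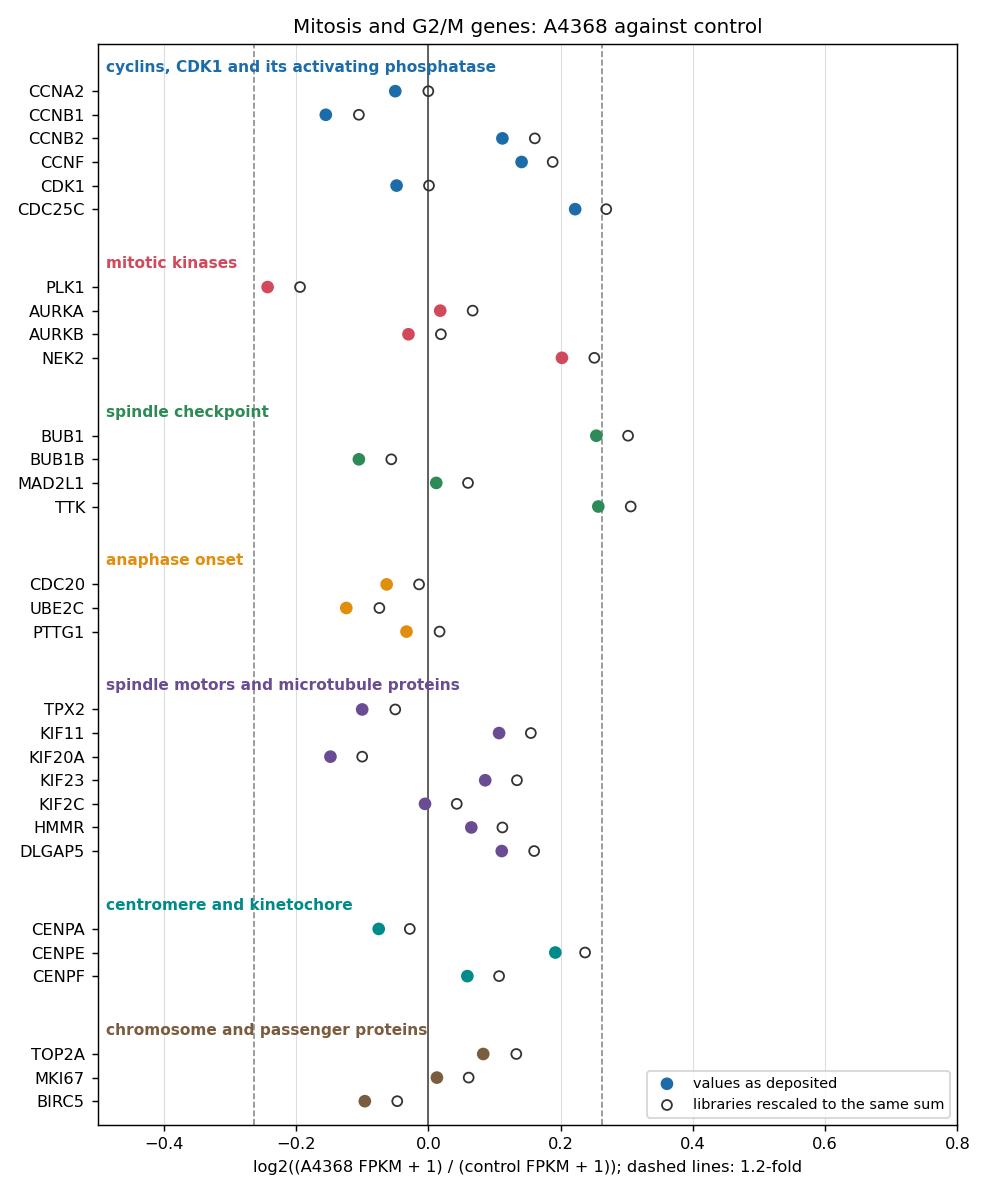
Library ratio of each gene on the log2(FPKM + 1) scale, A4368 over control, by role; filled points use the deposited values, open points the libraries rescaled to the same sum, and dashed lines mark 1.2-fold. All filled points lie between the dashed lines, from PLK1 at -0.24 to TTK at 0.26, and the open points are shifted to the right.

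Cyclins and CDK1 drive entry into mitosis. CDK1, the kinase itself, was at 120 FPKM with A4368, against 124 FPKM in the control. CCNB1, the main mitotic cyclin, was at 104 FPKM with A4368, against 115 FPKM in the control, a plain ratio of 1.11-fold lower. CCNB2, the second B-type cyclin, was at 96.9 FPKM with A4368, against 89.6 FPKM in the control. The B-type cyclins thus lay on opposite sides of the control, and the level of CCNB1 was 1.07 times that of CCNB2 with A4368, against 1.29 times in the control. CCNA2, the cyclin of S phase and G2, was at 66.9 FPKM with A4368, against 69.3 FPKM in the control. CCNF, the substrate receptor of a ubiquitin ligase that acts in G2, was at 16.9 FPKM with A4368, against 15.3 FPKM in the control. CDC25C, the phosphatase that removes the inhibitory phosphates of CDK1, was at 13.3 FPKM with A4368, against 11.3 FPKM in the control, or 1.18-fold higher. Of these 6 genes, 3 were higher and 3 lower.

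The mitotic kinases held both the lowest ratio of the set and one of the higher ones. PLK1, which acts in centrosome maturation, kinetochore attachment and mitotic exit, was at 72.8 FPKM with A4368, against 86.4 FPKM in the control, 1.19-fold lower. NEK2, a kinase of centrosome separation, was at 61.9 FPKM with A4368, against 53.7 FPKM in the control, 1.15-fold higher. The aurora kinases lay near the control in both directions. AURKA, the kinase of spindle poles, was at 55.5 FPKM with A4368, against 54.8 FPKM in the control. AURKB, the kinase of the chromosomal passenger complex, was at 88.8 FPKM with A4368, against 90.7 FPKM in the control.

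The spindle checkpoint, which delays anaphase until all kinetochores are attached, contained the 2 highest ratios. TTK, the kinase that starts checkpoint signalling, was at 36.7 FPKM with A4368, against 30.5 FPKM in the control, 20.2% higher, which is just under the 1.2-fold limit of the log2 ratio. BUB1, a checkpoint kinase of the kinetochore, was at 34.1 FPKM with A4368, against 28.5 FPKM in the control, 19.9% higher. Its partner BUB1B, a subunit of the mitotic checkpoint complex, was at 46.8 FPKM with A4368, against 50.4 FPKM in the control. The level of BUB1 was 0.730 of that of BUB1B with A4368, against 0.565 in the control. MAD2L1, the protein that holds back CDC20, was at 25.3 FPKM with A4368, against 25.1 FPKM in the control. The 4 checkpoint genes summed to 143 FPKM with A4368, against 134 FPKM in the control.

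The genes of anaphase onset were among the most abundant of the set, and all 3 had lower values. UBE2C, the ubiquitin-conjugating enzyme of the anaphase-promoting complex, was at 151 FPKM with A4368, against 165 FPKM in the control, 1.09-fold lower. PTTG1, which encodes securin, the inhibitor of separase, was at 122 FPKM with A4368, against 125 FPKM in the control. CDC20, the coactivator that brings substrates to the complex, was at 111 FPKM with A4368, against 117 FPKM in the control. After the rescaling PTTG1 was above 0, with a ratio of 0.02, and the other two stayed below it.

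Spindle motors and microtubule proteins split in both directions. Among the motors, KIF20A, a kinesin of cytokinesis, was at 28.9 FPKM with A4368, against 32.1 FPKM in the control, 1.11-fold lower. KIF23, another kinesin of the central spindle, was at 22.6 FPKM with A4368, against 21.3 FPKM in the control, 1.06-fold higher. KIF11, which pushes spindle poles apart, was at 28.0 FPKM with A4368, against 25.9 FPKM in the control. The microtubule depolymerase gene KIF2C was almost identical, at 33.9 FPKM with A4368, against 34.1 FPKM in the control. Among the spindle assembly factors, TPX2, an activator of AURKA, was at 111 FPKM with A4368, against 119 FPKM in the control. DLGAP5, which stabilises kinetochore fibres, was at 29.2 FPKM with A4368, against 27.0 FPKM in the control. HMMR, a spindle-associated protein, was at 14.0 FPKM with A4368, against 13.4 FPKM in the control. Of these 7 genes, 4 were higher and 3 lower, and none differed from the control by 1.2-fold.

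The centromere genes had the lowest summed level of any role, 64.9 FPKM with A4368, against 62.8 FPKM in the control. CENPE, the kinesin that moves chromosomes to the spindle equator, was at 10.4 FPKM with A4368, against 8.97 FPKM in the control, 1.16-fold higher. CENPF, a protein of the outer kinetochore, was at 38.1 FPKM with A4368, against 36.5 FPKM in the control. CENPA, the histone variant that marks the centromere, was at 16.4 FPKM with A4368, against 17.3 FPKM in the control. Among genes acting on the chromosomes, TOP2A, which untangles sister DNA, was at 132 FPKM with A4368, against 125 FPKM in the control. MKI67, the Ki-67 proliferation marker, was at 19.0 FPKM with A4368, against 18.8 FPKM in the control. BIRC5, which encodes survivin of the chromosomal passenger complex, was at 53.7 FPKM with A4368, against 57.5 FPKM in the control.

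The order of the genes by level was nearly the same in both libraries. UBE2C was first and CENPE last in each, 24 of the 30 genes kept their rank or moved by 1 place, and the largest shift was 3 places, for KIF20A, which was 21st with A4368 and 18th in the control. Spearman's rho between the libraries was 0.992 over the 30 genes. Rank agreement was not computed for other genes. The levels ran from 10.4 to 151 FPKM with A4368 and no ratio passed 1.2-fold, which leaves little room for changes of order. The near-equal order therefore adds nothing to the ratios. With no measured spread, neighbours in this order cannot be said to differ.

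**Figure D3:**
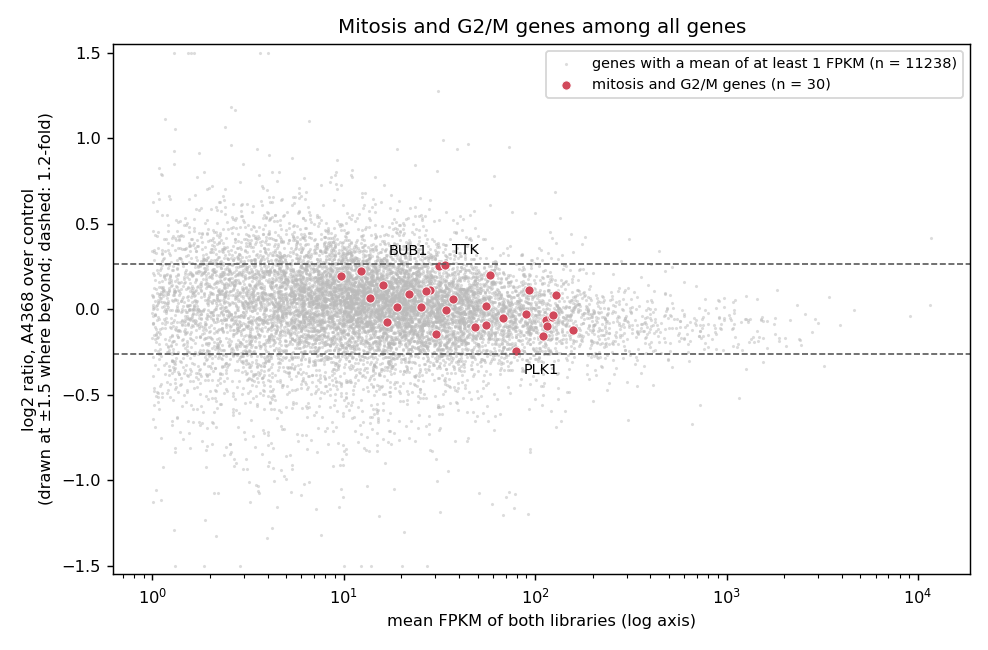
Library ratio, A4368 over control, against mean FPKM (log axis) for 11238 genes (grey) and the 30 mitosis and G2/M genes (red); ratios beyond 1.5 are drawn at that limit and dashed lines mark 1.2-fold. The red points lie inside the dashed lines, with TTK and BUB1 next to the upper line and PLK1 next to the lower one.

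Members with and without these promoter letters had overlapping ratios. The 15 genes with both a CHR and a CCAAT box had a median ratio of 0.06, with 9 higher, and ranged from -0.24 (PLK1) to 0.22 (CDC25C). The 10 matched genes without that pair had a median of 0.00, with 5 higher, and ranged from -0.10 (BUB1B) to 0.25 (BUB1). Of all genes 52.0% were higher. These values are as deposited. After the rescaling CDK1 and PTTG1, which have the pair, and AURKB and KIF2C, which do not, changed sign.

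Transcript length, GC content and level moved with the ratio among the members. Of 14 genes whose longest coding transcript has at least 3000 bases, 11 were higher with A4368, among them TTK, BUB1, CENPE, CENPF and TOP2A. The longer genes BUB1B, TPX2 and KIF20A were lower. Of 16 shorter ones, 5 were higher, and UBE2C, PTTG1 and CDC20 were among the lower ones. The 5 shorter genes that were higher were CCNB2, CDC25C, AURKA, NEK2 and DLGAP5. Among them CDC25C and NEK2 had ratios of 0.22 and 0.20, next after those of TTK and BUB1 in the whole set. The rescaling moved the ratios of all members up by nearly the same amount, so shorter genes just below 0 crossed it. After it 11 of the 14 longer and 9 of the 16 shorter genes were higher, now including PTTG1. The medians were then 0.12 and 0.01, against 0.07 and -0.04 as deposited, so the distance between them hardly changed. Over all genes with a matched transcript the same limit, chosen after the values were seen, gave 55.3% and 47.8% higher as deposited. After the rescaling 4085 of the 6353 longer and 2732 of the 4828 shorter of all these genes were higher. Spearman's rho of the ratio across the 30 genes was 0.36 with length, -0.47 with GC content and -0.48 with mean FPKM, and over all matched genes it was 0.08, 0.00 and -0.13. These points come from the same 2 libraries and are not independent replicates. The part of length, GC content and level in the ratios was not tested.

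**Figure D4:**
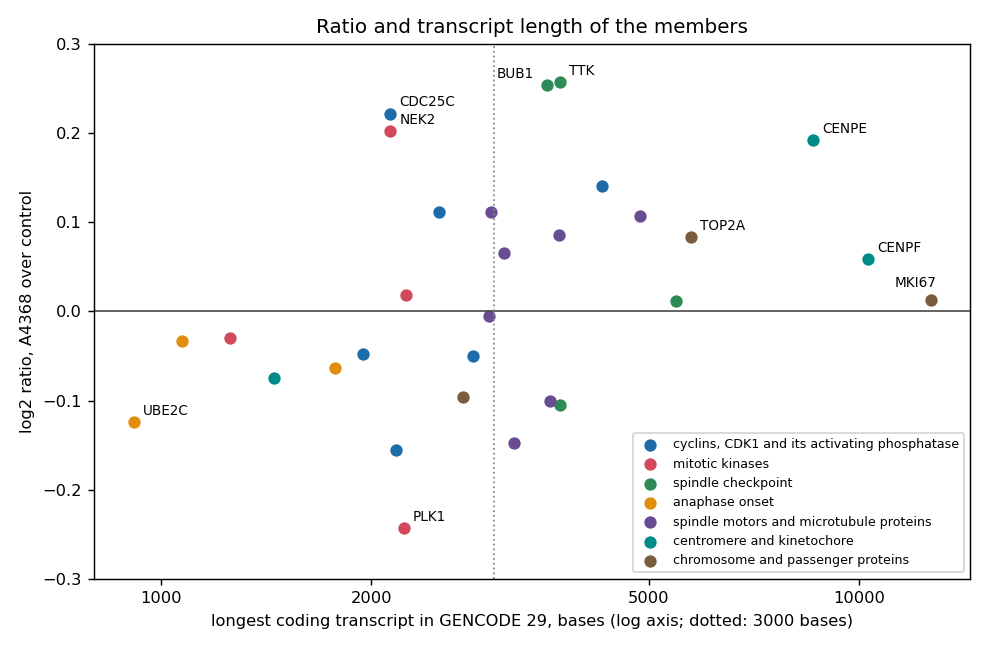
Library ratio of each member, A4368 over control, against the length in bases of its longest coding transcript (log axis), coloured by role; the dotted line marks 3000 bases. Of the 14 genes right of the line 11 lie above 0, and of the 16 left of it 5 do as deposited, while 11 and 9 were higher after the rescaling.

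Some members share sequence with other genes, so that the authors' counting could split their reads. Of the distinct 31-base words of CDC20, 20.3% occur in transcripts of other genes, all of them in the pseudogene CDC20P1. The share was 18.6% for NEK2, 16.3% for AURKA, 15.1% for PLK1 and 10.4% for CCNF, and at most 9.27% for the others. Exons of 9 members overlap a gene on the opposite strand, the largest overlap being 12.5% of the exon bases of PLK1. Exons of BUB1B and CENPA overlap a gene on the same strand. The strandedness of the libraries is not given in the sources used here, so reads of such partners cannot be told apart, and the values of these genes are uncertain to that extent. Without the 5 genes that share at least 10%, 13 of 25 members were higher and the median ratio was again 0.01.

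The rest of the division machinery was described through 160 further genes in 7 lists, none of them a member. All 160 had a mean level of 1 FPKM or more. Their median ratio was 0.02, with 87 higher and 73 lower, or 54.4% higher, while 52.0% of all genes were higher. After the rescaling 111 were higher and 49 lower, or 69.4% higher, while 60.9% of all genes were. The 1.2-fold limit was passed by 10 upward and 8 downward, where 11.2% and 11.1% of all genes passed it. After the rescaling it was passed by 18 upward and 6 downward, where 15.2% and 8.47% of all genes passed it. The 1.5-fold limit was passed by 3 upward and 0 downward, where 1.08% and 2.12% of all genes passed it.

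**Figure D5:**
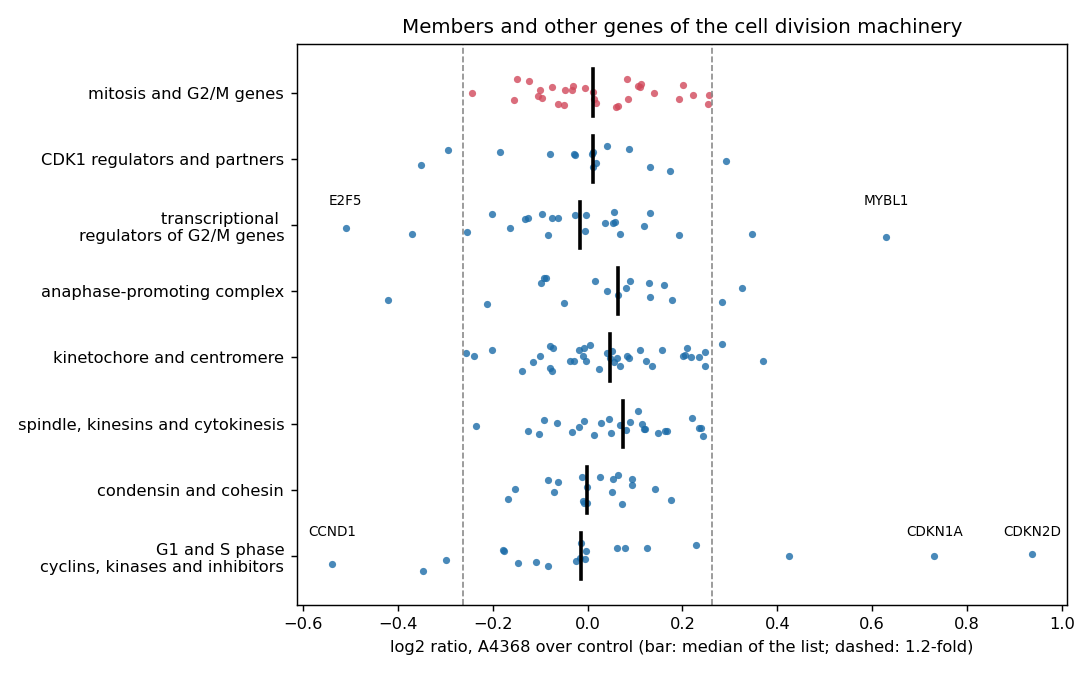
Library ratios, A4368 over control, of the 30 members (red) and of the 7 further lists (blue), 1 point for each gene; black bars are the medians and dashed lines mark 1.2-fold. The members, the spindle list and the condensin and cohesin list lie wholly within the dashed lines as deposited, and the points farthest out are CDKN2D, CDKN1A, MYBL1, CCND1 and E2F5.

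Most structural genes of mitosis lay within 1.2-fold of the control, as did most of all genes. Of all genes 52.0% were higher as deposited and 60.9% after the rescaling. The 1.2-fold limit was passed upward by 11.2% and 15.2% of all genes, and downward by 11.1% and 8.47%. Of 26 genes of the spindle, kinesins and cytokinesis 18 were higher (median 0.07, 21 of 26 after the rescaling). None passed 1.2-fold as deposited, and 4 passed it upward after the rescaling. In this list CKAP2L and CKAP2, spindle-associated proteins, were at 13.1 and 22.8 FPKM with A4368, against 10.9 and 19.4 FPKM in the control. NUMA1, which anchors microtubules at spindle poles, was at 8.41 FPKM with A4368, against 6.97 FPKM in the control, and ECT2, the exchange factor that starts cytokinesis, was at 66.7 FPKM with A4368, against 78.6 FPKM in the control. Of 39 kinetochore and centromere genes 23 were higher (median 0.05, 29 after the rescaling). The 1.2-fold limit was passed upward by 2 as deposited and by 5 after the rescaling, and by none downward. Those past it as deposited included CENPP, a centromere protein gene at 6.50 FPKM with A4368, against 4.81 FPKM in the control. CENPI was at 7.05 FPKM with A4368, against 5.78 FPKM in the control, and PMF1 at 110 FPKM with A4368, against 131 FPKM in the control. None of 19 condensin and cohesin genes passed 1.2-fold on either scale, with 9 higher as deposited and 14 after the rescaling. The condensin genes NCAPH and NCAPH2 were 1.14-fold and 1.11-fold higher, and STAG1 and WAPL, of cohesin and its release, 1.14-fold and 1.12-fold lower.

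Among regulators of CDK1 and of protein breakdown in mitosis, a few genes lay past 1.2-fold while most, as among all genes, did not. As deposited 52.0% of all genes were higher, and after the rescaling 60.9% were. The 1.2-fold limit was passed by 11.2% of them upward and 11.1% downward, or 15.2% and 8.47% after the rescaling. Of 15 regulators and partners of CDK1, 9 were higher, or 11 after the rescaling, and the median was 0.01. In this list 1 gene passed 1.2-fold upward and 2 downward, or 1 each way after the rescaling. CDK7, the catalytic subunit of the CDK-activating kinase, was at 30.1 FPKM with A4368, against 38.7 FPKM in the control. Its cyclin partner gene CCNH was at 20.2 FPKM with A4368, against 23.1 FPKM in the control. PLK4, the kinase of centriole duplication, was 1.25-fold higher and CCNB1IP1 1.23-fold lower. Of 17 genes of the anaphase-promoting complex 11 were higher on either scale, with a median of 0.06 as deposited and 0.11 after the rescaling. On either scale 2 of them passed 1.2-fold upward and 1 downward. The subunit genes ANAPC2 and CDC23 were 1.27-fold and 1.23-fold higher, and ANAPC15 and ANAPC10 were 1.38-fold and 1.17-fold lower. CDC23 overlaps the member KIF20A on the opposite strand.

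Of 24 genes of transcription factors that act on G2/M genes, 10 were higher, or 13 after the rescaling, and the median was -0.02. The shares of all genes that were higher were 52.0% as deposited and 60.9% after the rescaling. FOXM1 was at 55.2 FPKM with A4368, against 58.2 FPKM in the control. MYBL2, which encodes B-MYB, was at 57.5 FPKM with A4368, against 66.2 FPKM in the control, 1.15-fold lower. Both had values slightly below the control. In the E2F family, E2F5 was at 14.3 FPKM with A4368, against 20.8 FPKM in the control, 1.45-fold lower. E2F8 was at 4.25 FPKM with A4368, against 5.78 FPKM in the control, and E2F3 at 28.8 FPKM with A4368, against 34.6 FPKM in the control. These were the E2F genes farthest from the control. E2F1, E2F2, E2F4, E2F6 and E2F7 had ratios of -0.01, -0.10, 0.05, 0.06 and 0.07. RBL2, the pocket protein gene of the DREAM complex, was at 8.49 FPKM with A4368, against 6.46 FPKM in the control, 1.31-fold higher. MYBL1, picked after its values were seen, was 1.90-fold higher at 2.92 FPKM with A4368, against 1.53 FPKM in the control.

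By SD, the list of cyclins, kinases and inhibitors of G1 and S phase was the widest of the lists, at 0.34 across 20 genes. That SD includes CDKN2D and CDKN1A, with ratios of 0.94 and 0.73. The median absolute ratio of the list was 0.136, against 0.137 for all 11238 genes. Its quartiles ran from -0.154 to 0.09, against -0.13 to 0.145 for all genes. Of the 20 genes 7 were higher as deposited and 12 after the rescaling, where 52.0% and 60.9% of all genes were. The 1.2-fold limit was passed by 3 upward and 3 downward, where 11.2% and 11.1% of all genes passed it. After the rescaling 4 passed it upward and 2 downward, where 15.2% and 8.47% did. CCND1, the cyclin of early G1, was at 15.9 FPKM with A4368, against 23.5 FPKM in the control, 1.48-fold lower. SKP2, which marks CDK inhibitors for breakdown, was 1.27-fold lower with A4368. The CDK inhibitor genes farthest from the control were higher. CDKN1A was at 11.6 FPKM with A4368, against 6.56 FPKM in the control, 1.76-fold higher, and past 1.5-fold with the pseudocount of 1 but not with a pseudocount of 5. CDKN1C was at 210 FPKM with A4368, against 156 FPKM in the control, 1.34-fold higher. CDKN2D, picked after its values were seen, was at 4.94 FPKM with A4368, against 2.10 FPKM in the control. These G1 genes, named for their large ratios, were farther from the control than any of the 30 mitotic genes. So were CDK7, ANAPC15, CENPP and E2F5, named in the same way from other lists. Genes chosen like this allow no contrast between G1 and mitosis. Whether the lists differ beyond the variation between cultures cannot be told with 1 library each.

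The labelled cell type was checked on markers. All 8 hepatocyte and hepatoma markers had values, with ALB at 8930 FPKM with A4368, against 9183 FPKM in the control. No endothelial marker of 3 had a value, and 2 of 4 leukocyte markers (CD14 and CD68) and 1 of 4 stellate cell and fibroblast markers (LUM) did. PECAM1, PTPRC and COL1A1 had none.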

How the data were processed

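The RNA-seq table deposited by the authors holds a gene symbol and 1 value for each library under a header with no unit. Per the submitters' processing notes, the build was hg19 and the tools were Cufflinks, Bowtie2 2.2.3 and TopHat2 2.0.12. The values are not whole, so the deposited values were taken to be the authors' FPKM. Among 1680 genes under 3 FPKM, at most 6 shared a ratio of the libraries to 3 decimals, so no steps of single reads were seen. Annotation, filter and depth: not given in the sources used here, so no counting interval or detection floor is given. Of 24302 lines, 11511 held both values, and 11238 genes had a mean level of 1 FPKM or more.

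Library ratios used a pseudocount of 1, and folds in words are plain ratios. With 1 library per group no test was run. The ratio step was checked on simulated tables with known changes. Those changes were larger than any of the members, so the check does not bear on differences as small as theirs. The alternatives are in the closing section. Transcript lengths and shared 31-base words came from GENCODE release 29, which matched 99.4% of genes, and promoter sequences came from RefSeq. The promoters' build differs from hg19 and no coordinate was joined to the table. The members and lists were chosen with earlier results of these data known. Named genes were all members, up to 4 genes with the largest absolute ratio from each further list at a mean level of 5 FPKM or more, and FOXM1, MYBL2 and the E2F genes. Of these, 1 gene that this rule takes is not reported here. Python 3.11.15, numpy 2.4.6 and pandas 2.3.3 were used.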

Additional observations from a re-analysis of the deposited data

How the results depend on the processing

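The median ratio of the members was 0.012 as reported, 0.015 when centred on genes at 10 FPKM or more, 0.06 when rescaled without the 50 highest genes and 0.017 when corrected for transcript length and GC content. The number of members past 1.2-fold was 0 as reported, 1 with a pseudocount of 0.1, 3 after the rescaling, 2 after the length and GC correction and 9 (6 higher, 3 lower) with a 1.1-fold limit, which 9 higher and 1 lower passed after the rescaling. The correction, the 1.1-fold limit and the run without members that share sequence were chosen after seeing the data. The rescaling gave 0.065 for the median of the 160 further genes, which was 0.021 as reported, and 1.02 for the ratio of the members' summed level. No member passed 1.5-fold with either pseudocount or filter, after centring or after the rescaling. Among 58 single genes, CDKN1A moved across 1.5-fold, with a ratio of 0.52 at a pseudocount of 5. No paired analysis was possible because each group has 1 library. The unknown depth limits what can be said of differences as small as these.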
